A study of Mus musculus with 6 samples.

Results

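The 10 genes described here encode enzymes that detoxify reactive oxygen species: the glutathione peroxidases *Gpx1*, *Gpx3*, *Gpx4*, *Gpx7* and *Gpx8*, the superoxide dismutases *Sod1*, *Sod2* and *Sod3*, the catalase *Cat* and the quinone reductase *Nqo1*. They are 10 of the 18099 genes in the table, and all 10 were among the 14261 genes with enough reads to be tested. The set was listed by function, but it was chosen by an earlier look at these same libraries, in which *Gpx3* was among the steadiest increases between the groups. The difference between the groups is therefore given for the members as a description: no p-value is printed for them, and how many passed the test over all genes is given once, beside the share of all genes, with nothing read from it.

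Transcripts were sequenced from injured Achilles tendons of neonatal mice, collected a week after both tendons had been cut across. There were 3 libraries labelled Lysm-Cre; Ampkα1fl/fl and 3 from control littermates, which by the study's methods carried the floxed *Ampkα1* gene (*Prkaa1*) without Cre, and all 6 had tendon transection. The study set out to learn what the loss of AMPKα1 in macrophages does to tendon repair. Cre made from the lysozyme M gene acts in myeloid cells of every kind, including monocytes and granulocytes, whereas the RNA came from the whole repair tissue. The labels name no sex and do not say whether a library is 1 mouse, and the methods give 3 mice a group.

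Superoxide dismutases turn superoxide into hydrogen peroxide, each in its own place: SOD1 in the cytosol, SOD2 in the mitochondrial matrix and SOD3 outside the cell, where it binds the matrix. Catalase and the glutathione peroxidases then remove the peroxide, catalase within peroxisomes and the peroxidases with electrons from glutathione or other thiols. NQO1 reduces quinones and is a classic target of NRF2, the transcription factor that switches on antioxidant genes under oxidative stress.

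The glutathione peroxidases fall into 2 kinds by the residue at their active site, and the codon for it is shown because it separates the members named below. GPX1, GPX3 and GPX4 carry selenocysteine, which is written by a TGA codon that would otherwise stop translation, and GPX7 and GPX8 carry cysteine. GPX1 is the common intracellular form, GPX3 is secreted into plasma and tissue fluid, GPX4 reduces lipid peroxides within membranes and so holds back ferroptosis, and GPX7 and GPX8 lie in the endoplasmic reticulum, where they use peroxide in oxidative protein folding. Each coding sequence below is 63 bases long and centred on that codon, which is in capitals (GENCODE M21 annotation, build GRCm38).
Gpx1, exon 1 of 2, codon 47, plus strand, chr9:108339451-108339453: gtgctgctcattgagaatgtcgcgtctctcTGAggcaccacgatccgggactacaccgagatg
Gpx3, exon 2 of 5, codon 73, plus strand, chr11:54907256-54907258: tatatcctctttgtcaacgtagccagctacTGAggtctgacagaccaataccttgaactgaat
Gpx4, exon 3 of 7, codon 73, plus strand, chr10:80054737-80054739: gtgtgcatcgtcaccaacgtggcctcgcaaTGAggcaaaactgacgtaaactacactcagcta
Gpx7, exon 2 of 3, codon 56, minus strand, chr4:108403430-108403432: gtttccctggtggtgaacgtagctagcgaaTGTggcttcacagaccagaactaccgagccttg
Gpx8, exon 2 of 3, codon 79, minus strand, chr13:113045661-113045663: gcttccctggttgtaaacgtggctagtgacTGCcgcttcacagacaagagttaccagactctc
The coordinates are those of the codon in capitals. For *Gpx4*, the codon and exon numbers are those of NM_008162, which took 20.5 to 28.4% of the reads of that gene in each library. Between *Gpx7* and *Gpx8*, 46 of the 63 bases are identical, and between any other pair 27 to 35 are.

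Library totals were between 18076805 and 19479880 reads. *Prkaa1*, the targeted gene, had 740, 688 and 690 reads in the control libraries (replicates 1, 2 and 3, the order used throughout) and 626, 751 and 652 in the Lysm-Cre libraries (log2 fold change -0.08, edgeR adjusted p = 0.744). *Lyz2*, the gene that carries the Cre insertion in this line, had 7372 to 7778 reads in controls and 8 to 15 in the Lysm-Cre libraries, so the 2 groups are told apart by the Cre locus, while the whole-tissue level of the floxed gene does not separate them. The near loss of *Lyz2* transcripts is shared by the whole Lysm-Cre group. For every value below it cannot be told apart from the loss of AMPKα1. Tendon markers were abundant in every library, with *Col1a1*, the type I collagen of tendon, at 44240 to 52590 CPM (read counts scaled to library size, with TMM factors). Summed skeletal muscle markers ranged from 246 to 4116 CPM in controls and from 1371 to 11840 CPM in the Lysm-Cre libraries (15 of 15 genes higher, 0 past the test, groups overlapping), a spread that is wide within each group. Summed erythroid markers were 1998 to 2974 CPM in controls and 676 to 983 CPM in the Lysm-Cre group, with 6 of the 7 tested genes lower in edgeR's test, macrophage markers 1114 to 1162 against 729 to 926 CPM (8 of 11 lower, 0 past the test) and endothelial markers 663 to 714 against 589 to 662 CPM (6 of 6 lower, 0 past the test). Summed levels of 4 Y-linked genes, looked at after the data were seen, were 41.8 to 61.2 against 93.7 to 136 CPM (4 of 4 higher, 0 past the test). Every library held these transcripts, so none came from females alone. The sexes could be unevenly divided between the groups only if libraries pooled more than 1 mouse, which the labels do not say. The source of the Y-linked difference was not tested, and for every value below it cannot be told apart from genotype. Adipocyte (85.2 to 469 CPM), chondrocyte (1192 to 3058 CPM), neutrophil (1.54 to 41.9 CPM) and keratinocyte markers (1.77 to 58.5 CPM) overlapped between the groups, and of their genes only *Acan*, an aggrecan of cartilage, passed the test (log2 fold change 0.60, edgeR adjusted p = 0.0298). None of the markers was at or under 3 reads in every library. In bulk tissue, fewer cells of a type and less RNA per cell cannot be told apart. The part of these differences in the values below was not tested. For muscle, values from a fit with the muscle score are given beside the others as a description.

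Levels of different genes are compared as TPM, which is scaled to transcript length. In the control group the cytosolic dismutase and 3 of the peroxidases led: *Sod1* was at 483 ± 14.3 TPM, *Gpx1* at 458 ± 31.1, *Gpx4* at 413 ± 12.8 and *Gpx8* at 381 ± 20.3 TPM (SD, n = 3 for every group mean given here), and each of these overlapped its neighbour in the order. Below them, with no overlap between neighbours, came *Gpx7* (225 ± 16 TPM), *Gpx3* (191 ± 18.3 TPM), *Cat* (96.0 ± 8.18 TPM), *Sod3* (58.0 ± 3.49 TPM), *Sod2* (18.3 ± 1.83 TPM) and *Nqo1* (3.32 ± 0.161 TPM). Apart from *Gpx4* and *Gpx8*, which overlapped in both groups, the order in the Lysm-Cre group differed in the place of *Gpx3*, which at 381 ± 21.4 TPM stood above *Gpx7* (207 ± 8.62 TPM) and overlapped *Gpx4* (394 ± 16.1 TPM).

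**Figure D1:**
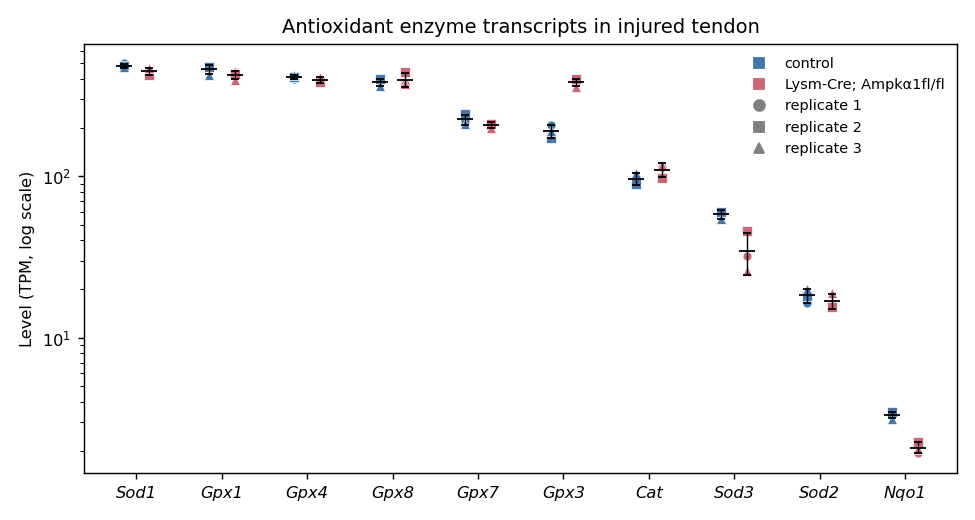
TPM level (log axis) of the 10 enzyme genes in the 3 control and 3 Lysm-Cre; Ampkα1fl/fl libraries, 1 symbol a library, with black bars for the mean and SD. The 2 groups stand clearly apart for *Gpx3*, *Sod3* and *Nqo1*. *Sod1* also has no overlap in TPM, by a narrow margin (471.3 TPM in the lowest control and 470.9 TPM in the highest Lysm-Cre library), and the other genes overlap.

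*Gpx3* was about 2-fold higher in the Lysm-Cre group. It had 2360, 1947 and 2071 reads in the control libraries and 4422, 4307 and 4095 in the Lysm-Cre libraries, which is 125, 106 and 114 CPM against 231, 233 and 221 CPM. The lowest Lysm-Cre library lies far above the highest control, and the 3 Lysm-Cre libraries are close to each other. The mean went from 115 ± 9.32 to 228 ± 6.14 CPM, a log2 fold change of 0.99 (standard error 0.071) and a fold of 1.99. Setting same-numbered libraries against each other gave ratios of 1.85, 2.19 and 1.95. By the size of the log2 fold change it ranked 306 from the top among the 14261 genes tested. The gene lies on chromosome 11 (54902854 to 54910387, GRCm38.p6), and at least 99.87% of its reads in each library were assigned to 1 transcript, NM_008161.

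The other selenocysteine enzymes differed little between the groups. *Gpx1* had 173, 176 and 151 CPM in controls and 160, 150 and 146 CPM in the Lysm-Cre group, a log2 fold change of -0.13 (standard error 0.075). *Gpx4* had 98.7, 102 and 101 CPM against 93.3, 90.2 and 103 CPM, a log2 fold change of -0.07 (standard error 0.063). In both genes the groups overlap. *Gpx4* has 2 annotated pseudogenes, *Gpx4-ps1* and *Gpx4-ps2*, with which reads could have been shared. Its reads were divided by the authors' estimate mainly between 2 transcripts, and the share of NM_008162 was 25.3, 23.6 and 20.5% in controls and 27.1, 28.4 and 28.0% in the Lysm-Cre group, with NM_001367995 taking nearly all the rest.

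The cysteine enzymes of the endoplasmic reticulum were close to equal between the groups. *Gpx7* had 98.6, 111 and 93.0 CPM in controls (1864, 2030 and 1696 reads) and 1840, 1664 and 1675 reads in the Lysm-Cre group, a log2 fold change of -0.13 (standard error 0.075). *Gpx8* had 2388, 2471 and 2148 reads against 2363, 2605 and 2351, a log2 fold change of 0.05 (standard error 0.076). The groups overlap in both, and the *Gpx8* difference became -0.01 without Lysm-Cre replicate 2. *Gpx7* overlaps the non-coding gene *Gm32297* and *Gpx8* overlaps *Cdc20b*, which had at most 1 read in any library.

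Summed over the 5 genes, glutathione peroxidase transcripts were at 1690, 1700 and 1610 TPM in controls and 1798, 1870 and 1737 TPM in the Lysm-Cre group. *Gpx3* made up 12.4, 10.1 and 11.8% of that sum in controls and 21.3, 21.5 and 20.7% in the Lysm-Cre group. With *Gpx3* left out, the sum was 1481, 1528 and 1420 TPM against 1416, 1468 and 1378 TPM, and the groups overlapped. The higher total lies in the 1 gene that was picked for its increase.

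**Figure D2:**
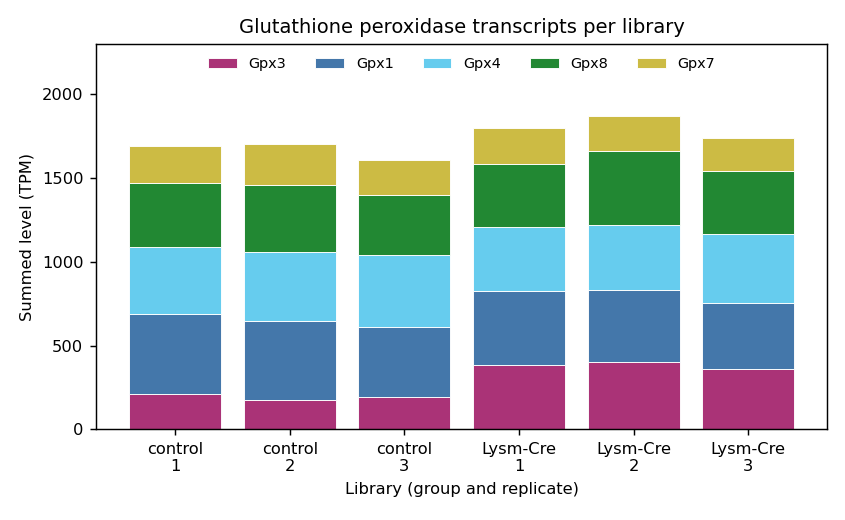
Summed TPM of the 5 glutathione peroxidase genes in each library, stacked by gene from 0. The *Gpx3* segment at the base takes 10.1 to 12.4% of the bar in the control libraries and 20.7 to 21.5% in the Lysm-Cre libraries, and the rest of the bar comes to between 1378 and 1528 TPM in all 6.

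Among the superoxide dismutases, the extracellular enzyme was lower in the Lysm-Cre group, and both intracellular enzymes overlapped between the groups in CPM. *Sod3* (chromosome 5, 52363804 to 52369738) had 976, 970 and 843 reads in controls and 532, 702 and 423 in the Lysm-Cre group, or 51.6, 53.0 and 46.2 CPM against 27.7, 38.0 and 22.9 CPM. The groups do not overlap, but the Lysm-Cre libraries are spread widely, with replicate 2 nearest to the controls. The log2 fold change was -0.77 (standard error 0.18), a fold of 0.587, and it lay between -0.99 and -0.61 when 1 library at a time was left out.

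*Sod1*, the most abundant member, had 80.6, 76.4 and 72.5 CPM in controls and a mean of 69.2 ± 6.12 CPM in the Lysm-Cre group, a log2 fold change of -0.15 (standard error 0.079), with groups that overlap in CPM and just miss each other in TPM. For *Sod2*, with 540, 604 and 641 reads in controls and 549, 486 and 630 in the Lysm-Cre group, it was -0.12 (standard error 0.12). As a share of the summed dismutase TPM, *Sod3* was 10.5, 10.7 and 9.90% in controls and 6.46, 9.39 and 5.0% in the Lysm-Cre group.

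*Cat* had 103, 104 and 117 CPM in controls and 128, 106 and 135 CPM in the Lysm-Cre group, a log2 fold change of 0.19 (standard error 0.10) with overlapping groups. Among the members, *Cat* followed the skeletal muscle markers most closely (r = 0.931 over the 6 libraries, with the score described next). *Sod3* (r = -0.815) and *Gpx1* (r = -0.792) came after it. These 6 points include the difference between the groups, and the markers leaned higher in the Lysm-Cre group. Muscle content and genotype are thus partly confounded, and muscle as a source of any difference was not tested. Ordered by the skeletal muscle score, the mean log2 CPM of the 15 muscle markers, the libraries ran from control 1 (3.52) through control 2 (5.01), Lysm-Cre 2 (5.80), control 3 (7.55) and Lysm-Cre 1 (7.65) to Lysm-Cre 3 (9.04), and *Cat* was higher at every step of that order. With the score as a covariate in the edgeR model, the log2 fold change of *Cat* was 0.03 and that of *Sod3* -0.55. The same fit gave -0.31 for *Sod2* (-0.12 without the score) and -0.06 for *Gpx1* (-0.13 without it). That of *Gpx3* was 1.04, and the other 5 members lay between -0.62 (*Nqo1*) and 0.13 (*Gpx8*). For *Gpx3* the r with the score was 0.513. Its values in the same order of libraries were 125, 106, 233, 114, 231 and 221 CPM.

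**Figure D3:**
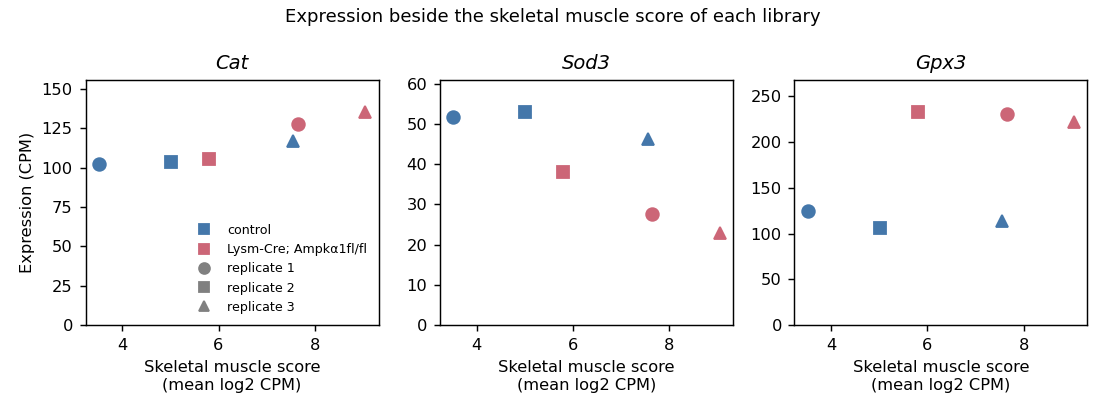
CPM of *Cat*, *Sod3* and *Gpx3* (each axis from 0) against the skeletal muscle score (mean log2 CPM of 15 markers) in the 6 libraries, coloured by group. *Cat* climbs from 103 to 135 CPM along the score across both groups, and *Sod3* is lowest in the library with the highest score (22.9 CPM). *Gpx3* separates by group (r = 0.513 with the score).

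*Nqo1* (chromosome 8, 107388225 to 107403205) was the rarest member, with 39, 40 and 35 reads in controls and 23, 25 and 24 in the Lysm-Cre group. That is 2.06, 2.19 and 1.92 CPM against 1.20, 1.35 and 1.30 CPM. The groups do not overlap, and the log2 fold change was -0.68 (standard error 0.20), a fold of 0.625. So few reads limit the precision of every value of this gene.

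Across the 10 members, 1 (*Gpx3*) was past the 0.05 threshold of the quasi-likelihood test in edgeR (Benjamini-Hochberg adjusted), where 0.898% of all genes tested passed, 0.33% as higher and 0.568% as lower in the Lysm-Cre group. In CPM, the groups did not overlap for 1 member as higher and for 2 as lower, against 8.94% and 11.4% of all genes. As this contrast was used to choose the members, nothing is read from these counts.

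**Figure D4:**
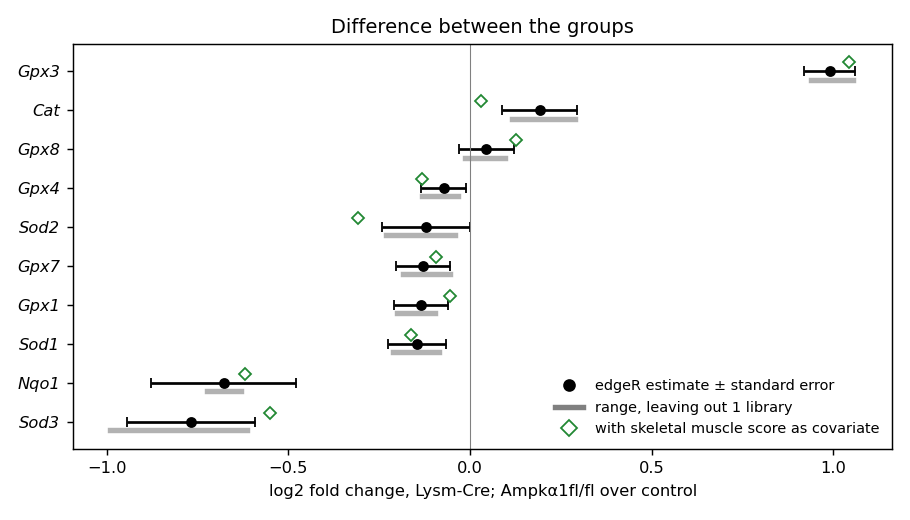
Log2 fold change of the 10 genes, Lysm-Cre; Ampkα1fl/fl over control, with the edgeR standard error (black), the range when 1 library at a time was left out (grey bar) and the value adjusted for skeletal muscle score (green diamond). *Gpx3* lies near 1 in all 3, *Sod3* and *Nqo1* lie below -0.5, and *Cat* moves from 0.19 to 0.03 with the covariate.

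The genes that work with these enzymes were taken from 11 lists, written with earlier results of these data known and without the 10 members. Of 130 genes listed, 127 were in the table and 117 were tested, of which 51 were higher and 66 lower in the Lysm-Cre group, and the median log2 fold change was -0.02 against -0.00203 over all genes. In edgeR's test 2 passed (1.71% of the 117, against 0.898% of all genes). *Gsto1*, a glutathione transferase that also reduces dehydroascorbate, rose from 40.1, 40.5 and 40.5 CPM to 53.1, 49.7 and 49.9 CPM (log2 fold change 0.34 ± 0.053 SE; by edgeR, adjusted p = 0.0475 and 0.108 in the blocked fit). *Aoc3*, a vascular amine oxidase that releases hydrogen peroxide, fell from 196, 186 and 195 CPM to 125, 125 and 103 CPM (log2 fold change -0.71 ± 0.085 SE; by edgeR, adjusted p = 0.0230 and 0.0528 in the blocked fit). Both calls are near the threshold: with the replicate block 0 of the 117 passed (0.33% of all genes), with DESeq2 10 did (4.77% of all genes), and over all alternatives the adjusted p ran from 0.00355 to 0.587 for *Gsto1* and from 1.6e-11 to 0.845 for *Aoc3*. The call of *Gsto1* was lost without any 1 of the 6 libraries, and that of *Aoc3* without control 1, 2 or 3 or Lysm-Cre 1.

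Differences were small in the peroxiredoxins and the thioredoxin system, and larger for single genes of glutathione metabolism. All 6 peroxiredoxins, which reduce peroxide with thioredoxin, had log2 fold changes between -0.18 (*Prdx4*, edgeR adjusted p = 0.404) and 0.04 (*Prdx5*, adjusted p = 0.761), and 0 of 6 passed. The 11 genes of the thioredoxin and glutaredoxin system lay between -0.19 (*Txnrd3*) and 0.10 (*Glrx2*), and 0 of 11 passed. Glutathione synthesis and recycling also had 0 of 10 past the test, with *Oplah* at 0.16 and *Ggt5* at -0.13 as the outer values among genes of at least 5 CPM. Below that level, *Slc7a11*, the cystine transporter that supplies glutathione synthesis, was at -0.89 and *Ggt1*, which breaks down extracellular glutathione, at -0.63, both named after their values were seen (edgeR adjusted p = 0.350 and 0.456). Of the 17 glutathione transferases tested, 8 were higher and 9 lower, and 1 passed (*Gsto1*). The lowest, *Gstt1*, had 12.2, 12.4 and 12.3 CPM against 8.29, 7.41 and 6.49 CPM (log2 fold change -0.73 ± 0.12 SE, adjusted p = 0.0508 in edgeR and 0.00215 in DESeq2). *Mgst1*, a membrane-bound transferase also named after its values were seen, had 30.5, 34.1 and 28.7 CPM against 21.8, 18.9 and 17.2 CPM (log2 fold change -0.69 ± 0.11 SE, adjusted p = 0.0508 in edgeR and 0.000109 in DESeq2). Neither overlaps between the groups, and both are just outside edgeR's threshold and past that of DESeq2.

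Regulators and targets of NRF2, the group to which *Nqo1* belongs, were split evenly: 9 of 18 were higher and 9 lower, the median log2 fold change was 0.01, and 0 passed. The outer values were *Sqstm1*, an autophagy receptor that feeds back on NRF2, at 0.28 (edgeR adjusted p = 0.298) and *Tkt*, the transketolase of the pentose phosphate pathway, at -0.34 (adjusted p = 0.113, or 0.00683 in DESeq2). The core of the antioxidant response element that NRF2 binds, TGACNNNGC on either strand, was looked for from 250 bases before to 50 after each start site in RefSeq promoters (GRCm38.p6). It was in 4071 of 32851 promoters (12.4%) and in 1 of the 12 promoters (8.33%) of the 9 members with a sequence. The shares are close, so nothing is read from the member count. Elements further from the start were not looked for, in *Nqo1* or any other member. The 1 match is in the promoter of *Sod1*, where it lies 56 bases before the start on the opposite strand. The 29 bases around it, with the match in capitals, are shown as the member hit.
Sod1, plus strand, chr16:90220696-90220724: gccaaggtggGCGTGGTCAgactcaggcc

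Selenoproteins other than the peroxidases, and the genes that build selenocysteine, were tested as 19 genes, of which 6 were higher, 13 lower and 0 past the test. They ranged from -0.76 for *Lrp8*, a receptor that takes up the selenium carrier selenoprotein P (edgeR adjusted p = 0.262), to 0.08 for *Selenow*. With DESeq2, 1 of the 19 passed, where 4.77% of all genes did, and nothing is read from that count. It was *Selenop*, the gene of that carrier, also named after its values were seen. *Selenop* had 595, 603 and 675 CPM against 564, 435 and 450 CPM (log2 fold change -0.37 ± 0.11 SE, adjusted p = 0.191 in edgeR and 0.0173 in DESeq2). Its groups did not overlap, as in the 11.4% of all genes that were lower without overlap. Enzymes that produce oxidants had 4 genes higher and 8 lower. Besides *Aoc3*, which passed, the largest increase was in *Nox4*, the NADPH oxidase that makes hydrogen peroxide, with 12.4, 14.2 and 13.1 CPM against 23.4, 20.1 and 19.1 CPM (log2 fold change 0.66 ± 0.11 SE, adjusted p = 0.0508 in edgeR, 0.0936 in the blocked fit and 0.000551 in DESeq2). *Nox4* does not overlap between the groups, and it passed with DESeq2 but not with edgeR.

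Genes of oxidative protein folding, the setting in which GPX7 and GPX8 work, ran from -0.07 (*Ero1a*) to 0.23 (*Qsox1*), and those of the peroxisome, where catalase lies, from -0.32 (*Abcd2*) to 0.13, with *Pex13* at 0.11 the highest of at least 5 CPM. None passed in either list (0 of 8 and 0 of 14). The metallothioneins, which bind zinc and scavenge radicals, were both higher without passing in edgeR, and *Mt1* had 23.8, 22.4 and 23.2 CPM against 39.4, 30.8 and 35.1 CPM (log2 fold change 0.60, edgeR adjusted p = 0.0530, or 0.0652 in the blocked fit and 0.000197 in DESeq2). *Gpx2*, the epithelial member of the peroxidase family, had at most 1 read in any library and was not tested, like 9 other genes of the lists with few reads.

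**Figure D5:**
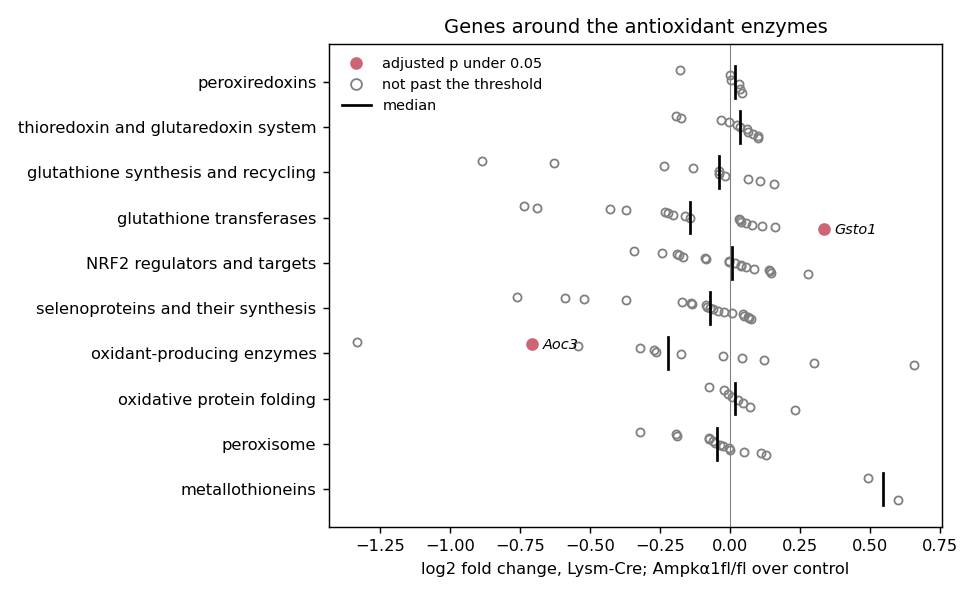
Log2 fold change, Lysm-Cre; Ampkα1fl/fl over control, of the 117 tested genes in the 10 lists that had any, 1 point a gene, with the list median as a black line. The 2 filled points, *Gsto1* at 0.34 and *Aoc3* at -0.71, had an edgeR adjusted p under 0.05, and the list medians lie between -0.22 and 0.55.

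The genes whose level followed that of *Gpx3* most closely over the 6 libraries, by Pearson's r of log2 CPM, were *Rflnb* (r = 0.9985), *Wdfy1* (0.9934), *Arhgef19* (0.9923), *Edil3* (0.9916) and *Gpc1* (0.99). The 6 points include the difference between the groups, so any gene with a steady difference scores high, and 110 genes reached an r of at least 0.95. *Wdfy1* had 25.1, 23.8 and 25.4 CPM in controls and 59.5, 56.6 and 53.9 CPM in the Lysm-Cre group. *Gpc1*, a heparan sulphate proteoglycan of the cell surface, had 401, 344 and 345 CPM against 603, 657 and 572 CPM.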

How the data were processed

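Whole injured tendon RNA was sequenced on a BGISEQ platform in 3 control and 3 Lysm-Cre; Ampkα1fl/fl libraries, the groups and replicate numbers being those of the labels. The table deposited by the authors holds, for 65053 transcripts, estimated counts without normalization and TPM values. The submitters' processing notes name the genome build GRCm38.p6, while the aligner and counter are not given in the sources used here. A further 12 columns of per-sample values (FPKM and a normalized count) and 8 columns of averages were not used.

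Estimated counts were summed per gene and rounded to whole reads, giving 18099 genes, of which 18049 (99.72%) matched a symbol through the NCBI Gene table of GRCm38.p6. TPM was summed per gene for levels. Totals were 18076805 to 19479880 reads, and a gene at or under 3 reads in every library was treated as at the floor. After filterByExpr, 14261 genes were fitted in R 4.3.3 with edgeR 4.0.16 (TMM, quasi-likelihood F test, Benjamini-Hochberg, threshold 0.05). The same fit was also run on counts simulated from the dispersions of these data, and nothing is read from that run. Standard errors are the estimate over the square root of F. Promoters of chromosome 18 were left out of the motif search. Alternatives were RLE and upper-quartile scaling, DESeq2 1.42.0, 2 other filters, limma 3.58.1 on log2(TPM + 1) and log2(TPM + 0.1), a replicate block, muscle and erythroid scores (mean log2 CPM, prior count 2) as covariates, and leaving out each library. The p-values weigh the difference between the groups against the spread within them, over these 6 libraries. That is a spread between mice only if each library is a separate mouse, which the labels do not say.

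Members, lists and markers were chosen with earlier results of these data known, and the Y-linked list after seeing the data. Genes were named by a rule: the 10 members, list genes past the test, the largest positive and negative of each list at a mean of at least 5 CPM, the 5 genes most like *Gpx3*, and the most abundant marker of a cell type, of which those beside a result are printed. Same-numbered libraries deviated together only weakly (r = 0.184, 0.118 and 0.310, from the labels' replicate numbers). Control 1 with Lysm-Cre 2 gave 0.501, and control 2 with Lysm-Cre 3 gave 0.127. The labels do not say whether the numbers mark litters or batches, so pairing is not established. Values with the replicate block stand beside the calls that it changes as an alternative.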

Additional observations from a re-analysis of the deposited data

How the results depend on the processing

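The count of all genes past the edgeR test (128) and of the 117 list genes (2) depended on the processing. DESeq2 gave 680 and 10, the replicate block 47 and 0, the skeletal muscle score as a covariate 75 and 1, limma on log2(TPM + 1) 68 and 1, and on log2(TPM + 0.1) 61 and 1. The list count was 1 with upper-quartile scaling and 6 with at least 10 reads in every library. The erythroid score, whose groups do not overlap and so cannot be told apart from genotype, left 0 and 0. Leaving out 1 library gave 8 (without control 2) to 276 genes (without Lysm-Cre 2), and 0 to 3 list genes; without control 1, control 3, Lysm-Cre 1 and Lysm-Cre 3 the counts over all genes were 10, 24, 12 and 60.

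With the erythroid fit set aside, 9 of the 10 members kept the sign of their log2 fold change in all 15 other alternatives, and *Gpx8* in 13. *Gpx3* lay between 0.94 and 1.05 (1.13 with the erythroid score), *Sod3* between -0.99 and -0.55, *Nqo1* between -0.72 and -0.49 and *Cat* between 0.03 and 0.29. The muscle score moved *Sod2* from -0.12 to -0.31. The erythroid score turned *Sod2* to 0.19 and *Gpx8* to -0.78, and moved *Cat* to 0.99, *Sod3* to -1.82, *Nqo1* to -1.51, *Gpx7* to -0.49, *Gpx1* to -0.44, *Sod1* to -0.35 and *Gpx4* to -0.14. *Nqo1*, at 23 to 40 reads a library, is limited by depth.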
